A study of Homo sapiens with 6 samples.

Results

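HOX genes encode homeodomain transcription factors and sit in 4 clusters of the human genome, HOXA on chromosome 7, HOXB on chromosome 17, HOXC on chromosome 12 and HOXD on chromosome 2. The genes here are every gene with a count file entry whose symbol is HOX, a cluster letter and a number, 39 of 22091 gene IDs: 11 in HOXA, 10 in HOXB, 9 in HOXC and 9 in HOXD. RNA was sequenced from 3 human hepatocellular carcinoma lines, HCCLM3, MHCC97H and MHCC97L, each given TGF-β1 ligand at 2.5 ng/mL over 4 h or kept as a control over the same 4 h. All were grown in DMEM with 10% fetal bovine serum and antibiotics. MHCC97H and MHCC97L were selected from one parental line for high and low metastatic potential, and HCCLM3 goes back to lung metastases grown from MHCC97H. There is 1 library per line and condition, 6 in all, with total expected counts of 21257080 to 23242862 after TGF-β1 and 18485041 to 22854982 in controls.

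In the embryo the clusters lay out position along the head-to-tail axis. Genes at one end of a cluster, the low-numbered paralogue groups, act in anterior tissue, and genes at the other end, the high-numbered groups, act in posterior tissue and limbs. Adult tissues and tumours keep parts of this pattern. HOX proteins bind DNA together with cofactors of the PBX and MEIS families. Polycomb complexes hold the clusters silent, trithorax-type complexes keep active genes on, and retinoic acid is the classic signal that opens the anterior end. TGF-β1 signals through SMAD2 and SMAD3, which enter the nucleus with SMAD4 and change transcription within hours.

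The promoters of HOXA11, HOXA13 and HOXA10 are shown because the results turn on these neighbours at the posterior end of HOXA. HOXA11 and HOXA13 differed in opposite directions between HCCLM3 and both MHCC97 lines, and HOXA10 rose after TGF-β1. The sequences are from RefSeq on GRCh38.p14, run 5′ to 3′ on the minus strand and span 250 bases before to 50 bases after a transcription start. RefSeq windows were matched for 20 of the 39 genes, with 26 distinct windows in all. HOXC4 and HOXC5 share 1 of them, and HOXC12 and HOXB6 are not among the 20. In the first pair, capitals mark CpG dinucleotides. The HOXA11 window, chr7:27185183-27185482, holds 13 CpGs and has 51.3% G and C, and the HOXA13 window, chr7:27200042-27200341, holds 44 CpGs and has 76.3% G and C, against a median of 22.5 CpGs over the 26 HOX windows and 14 over 34943 distinct human promoter windows.
HOXA11: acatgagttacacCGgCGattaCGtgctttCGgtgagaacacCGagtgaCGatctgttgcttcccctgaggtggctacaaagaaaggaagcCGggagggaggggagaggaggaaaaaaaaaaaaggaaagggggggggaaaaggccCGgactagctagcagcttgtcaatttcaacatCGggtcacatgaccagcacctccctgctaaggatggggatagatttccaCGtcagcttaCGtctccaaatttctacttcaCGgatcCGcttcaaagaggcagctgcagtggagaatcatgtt
HOXA13: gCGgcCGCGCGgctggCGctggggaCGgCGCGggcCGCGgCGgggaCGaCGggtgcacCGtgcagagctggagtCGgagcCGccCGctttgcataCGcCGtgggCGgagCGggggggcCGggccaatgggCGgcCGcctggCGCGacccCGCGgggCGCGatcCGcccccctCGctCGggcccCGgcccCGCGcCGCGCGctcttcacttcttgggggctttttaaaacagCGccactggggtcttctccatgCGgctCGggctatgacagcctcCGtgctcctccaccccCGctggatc
In the next pair, which shows 2 start sites of HOXA10, capitals mark GGCGCC, a GC-rich motif described for SMAD proteins. The window at chr7:27174271-27174570 holds 2 matches and the window at chr7:27179812-27180111 holds none.
HOXA10 downstream start: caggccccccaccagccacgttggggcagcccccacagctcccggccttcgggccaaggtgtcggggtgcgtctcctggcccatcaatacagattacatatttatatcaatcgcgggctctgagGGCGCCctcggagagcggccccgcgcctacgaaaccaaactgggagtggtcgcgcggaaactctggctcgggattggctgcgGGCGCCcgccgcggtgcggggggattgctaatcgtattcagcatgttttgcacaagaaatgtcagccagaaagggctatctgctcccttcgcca
HOXA10 upstream start: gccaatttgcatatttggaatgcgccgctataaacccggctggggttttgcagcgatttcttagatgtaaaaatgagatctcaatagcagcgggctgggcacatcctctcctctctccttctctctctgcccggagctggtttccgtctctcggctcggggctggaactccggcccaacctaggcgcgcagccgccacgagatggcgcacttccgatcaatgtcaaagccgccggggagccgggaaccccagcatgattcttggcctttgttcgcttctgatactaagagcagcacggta
On both strands, GGCGCC was found in 7 of the 26 HOX windows, 3 of them starts of HOXA3, and in 19.2% of all 34943 windows. The SMAD-binding element CAGAC was in 11 HOX windows, 6 of them starts of HOXA3, and 45.3% of all windows, and the AP-1 motif TGANTCA was in 0 HOX windows and 7.72% of all windows. The HOXA11 and HOXA13 windows held none of the 3 motifs. These are matches of letters and do not show binding.

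The lines were checked against liver markers and against the ligand. Of 10 hepatocyte and liver cancer markers, 8 reached 1 CPM (expected counts scaled to a common library total) in some library, while GPC3 was listed at 0 in every library and TTR stayed under 1 CPM. Their summed level was 190 to 378 CPM after TGF-β1 and 139 to 287 CPM in controls, and HCCLM3 had 1.22 and 1.46 CPM of ALB, the albumin gene, after TGF-β1 and in control. Of the markers of stellate cells and fibroblasts 4 of 8 reached 1 CPM, with sums of 18.7 to 37.6 CPM after TGF-β1 and 10.6 to 35.0 CPM in controls, of endothelium 3 of 4, with sums of 9.32 to 35.2 CPM and 13.4 to 42.0 CPM, and of leukocytes 1 of 5, with sums of 110.0 to 239.5 CPM and 129 to 221 CPM. That 1 was CD68, a lysosomal gene also expressed outside leukocytes, while PTPRC and CD3E stayed under 1 CPM. The part of other cells in the HOX levels was not tested. The TGF-β1 targets PMEPA1, CCN1 and SMAD7 were higher after TGF-β1 by 3.30, 1.88 and 1.19 on the log2 scale, each with an adjusted p under the threshold of 0.05 used throughout (edgeR quasi-likelihood test, Benjamini-Hochberg over all genes tested).

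A HOX gene was taken as expressed in a line at 1 CPM or more in both of its libraries. By this rule 12 HOX genes were expressed in HCCLM3, 16 in MHCC97H and 13 in MHCC97L, all from HOXA, HOXB and HOXC and none from HOXD. Among all 22091 gene IDs the same rule held for 57.6% in HCCLM3, 58.1% in MHCC97H and 58.2% in MHCC97L, a larger share than among the HOX genes in each line, which was not tested. In HCCLM3 the expressed genes were 7 of HOXA, 3 of HOXB and 2 of HOXC. In MHCC97H they were 8, 5 and 3, and in MHCC97L 7, 3 and 3. The same 12 genes were expressed in all 3 lines: HOXA2, HOXA3, HOXA5, HOXA6, HOXA10, HOXA11, HOXA13, HOXB5, HOXB6, HOXB7, HOXC8 and HOXC9. HOXC6 met the rule in both MHCC97 lines and not in HCCLM3, and HOXA4, HOXB3 and HOXB4 met it in MHCC97H alone.

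The expressed genes came from both ends and the middle of the clusters. Of the 8 genes of the anterior groups 1 to 3, 2 were expressed in HCCLM3, 3 in MHCC97H and 2 in MHCC97L. Of the 15 genes of the central groups 4 to 8, 6, 9 and 7 were expressed in those lines, and of the 16 genes of the posterior groups 9 to 13, 4 in each line. Anterior genes were carried by HOXA3. They summed to 50.1 and 51.3 CPM in HCCLM3 after TGF-β1 and in control, 43.8 and 37.1 CPM in MHCC97H, and 35.2 and 30.4 CPM in MHCC97L.

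The other 23 genes were low. HOXC10 and HOXC12 reached 1 CPM in some library but not in both libraries of any line. A group of 14 were above 0 and under 1 CPM in every library. Among them were HOXA7, with at most 0.941 CPM, and HOXA9, with at most 0.0980 CPM. HOXA9 lies between HOXA6 and HOXA10, which were expressed. It shares exon sequence with HOXA10-AS on the other strand and with further genes on its own. Its expected counts had decimals in some libraries, so some of its reads may have been assigned elsewhere. HOXD4, HOXD8, HOXD9, HOXD10, HOXD11 and HOXD13 had no count in any library. With no count, a level of up to 3 counts remains possible, that is 0.129 to 0.141 CPM in a TGF-β1 library and 0.131 to 0.162 CPM in a control library. In all, 12 genes had at most 3 counts in every library, so for these no direction could be read at this depth.

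**Figure D1:**
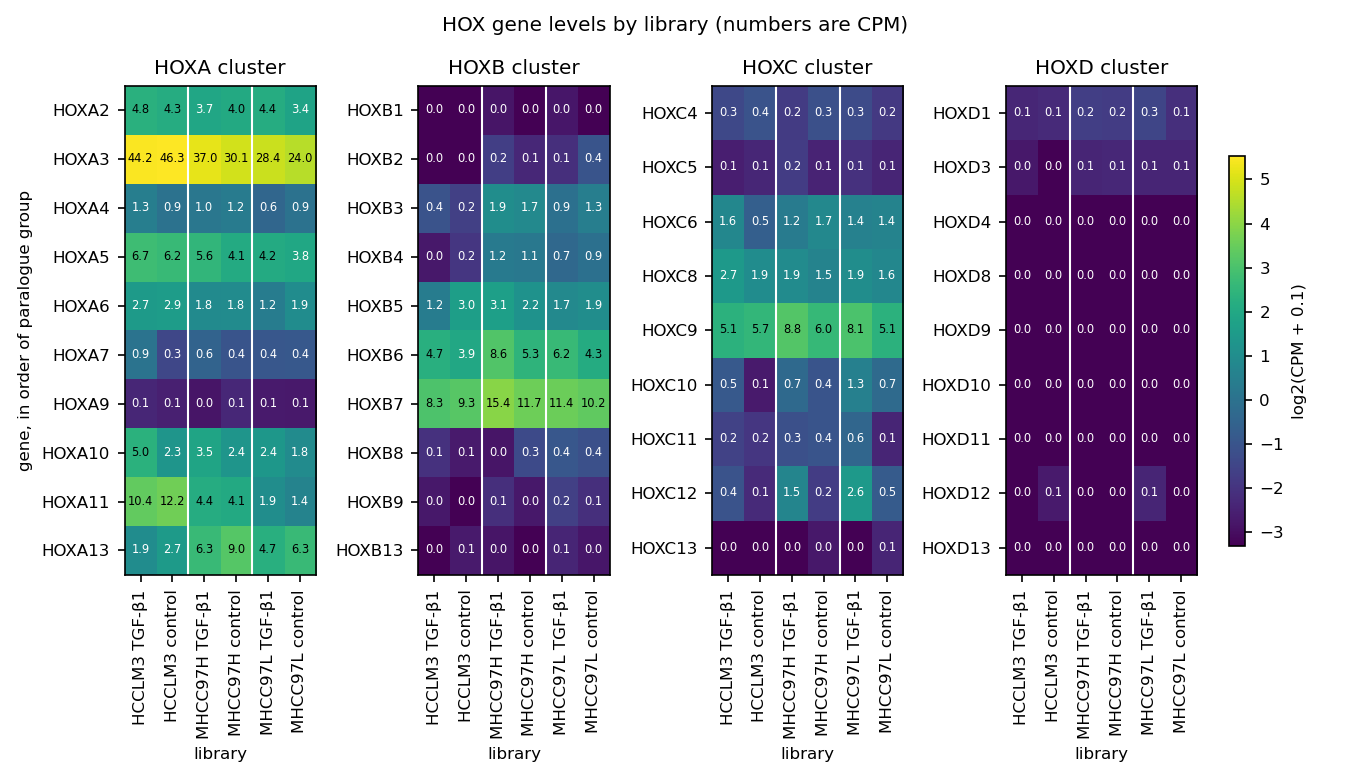
CPM of HOX genes in each of the 6 libraries, with 1 panel per cluster, genes in order of paralogue group and libraries in columns, TGF-β1 left of control for each line. Colour is log2(CPM + 0.1) and numbers are CPM. HOXA3 is brightest at 24.0 to 46.3 CPM, and the HOXD panel stays under 0.3 CPM.

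HOXA held the largest share of HOX counts in every library, 56.1% to 75.3%. In HCCLM3 its genes summed to 78.6 CPM both after TGF-β1 and in control, in MHCC97H to 64.6 and 58.1 CPM, and in MHCC97L to 49.4 and 45.2 CPM. HOXB summed to 14.8 and 16.7 CPM in HCCLM3, 30.7 and 22.5 CPM in MHCC97H, and 21.7 and 19.4 CPM in MHCC97L. HOXC summed to 10.8 and 8.91 CPM in HCCLM3, 14.8 and 10.6 CPM in MHCC97H, and 16.5 and 9.80 CPM in MHCC97L, so its sum was the larger after TGF-β1 in each line. HOXD summed to at most 0.433 CPM.

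Per length of exon, 1 gene led each cluster, the same in each of the lines. HOXA3, an anterior gene needed for pharyngeal organs in mice, had 10.5 CPM per kilobase of exon as the mean of the TGF-β1 and control libraries in HCCLM3, 7.79 in MHCC97H and 6.08 in MHCC97L. HOXB7, a central gene often studied in carcinomas, had 5.77, 8.89 and 7.06 CPM per kilobase in those lines, and HOXC9, the first of the posterior HOXC genes, 3.20, 4.41 and 3.91. HOXA3 thus exceeded HOXB7 per kilobase in HCCLM3 but was below it in both MHCC97 lines. Second in HOXA came HOXA11 in HCCLM3, with 4.90 CPM per kilobase, and HOXA5 in MHCC97H and MHCC97L, with 2.84 and 2.35. HOXA3 shares exon sequence with further genes annotated on its own strand and, on the other strand, with HOXA-AS2 and HOXA-AS3. HOXC9 shares it with HOXC6 and, on the other strand, with HOXC-AS2. The strand of the libraries is not given. Part of the HOXA3 and HOXC9 counts, in every sum and comparison that holds them, may therefore belong to these genes.

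**Figure D2:**
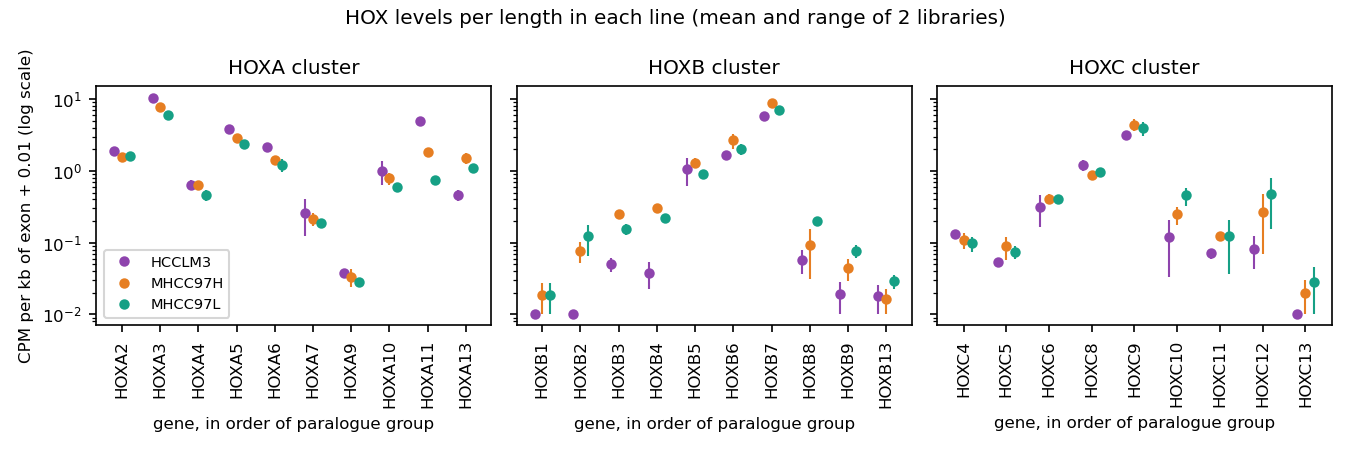
Level per length, CPM per kilobase of exon plus 0.01 on a log scale, of HOXA, HOXB and HOXC genes in order of paralogue group. Points are the mean of the 2 libraries of a line and vertical lines span them. HOXA3, HOXB7 and HOXC9 are the top of their panels in each line, and HOXA11 spans 0.626 to 5.30 CPM per kilobase over the libraries.

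The first comparison asks which HOX genes changed with 4 h of TGF-β1 across the lines. HOXC12, HOXA10 and HOXB6 rose and no HOX gene fell. The 3 are 15.8% of the 19 HOX genes tested, against a background of 14.4% of 14176 genes called in either direction, 7.79% higher and 6.65% lower. Of all these calls 53.9% were higher, a share that library totals put at 37.1% and upper quartiles at 44.2%. This is near the background and is no result about HOX genes as a group. The median estimate was 0.20 on the log2 scale over the 19 genes and -0.003 over all genes tested. Of the HOX estimates 13 were above 0 and 6 below, beside 49.6% of all genes tested above 0. At an unadjusted p under 0.05 (edgeR quasi-likelihood test) there were 7, of which 6 were higher. The share of all genes at that level is not given here, so this count is no result about the group. The other 20 HOX genes did not pass the filter on low counts. The fit holds line and treatment as terms, so each p rests on how the response varied between 3 lines. These lines are related by origin, so n = 3 lines does not stand for 3 independent tumours. The labels do not say whether libraries came from separate cultures. In bulk RNA, more cells expressing a gene and more RNA per cell cannot be told apart.

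HOXC12, a posterior HOXC gene active in hindlimb and hair follicle, had the largest estimate of the tested HOX genes. Its gene spans 53954834 to 53958956 on the plus strand of chromosome 12 in GENCODE 29, and no other annotated gene shares its exons. It had 8 counts (0.376 CPM) in HCCLM3, 36 (1.55 CPM) in MHCC97H and 61 (2.64 CPM) in MHCC97L after TGF-β1, against 2 (0.108 CPM), 4 (0.196 CPM) and 11 (0.481 CPM) in the controls. Each TGF-β1 library was above its own control, the groups overlapped because TGF-β1-treated HCCLM3 lay below the MHCC97L control, and no control library reached 1 CPM. HOXC12 rose by 2.56 on the log2 scale (SE 0.349, n = 3 lines, 5.90-fold, edgeR quasi-likelihood adjusted p = 0.0020). It passed the filter through 2 TGF-β1 libraries and 1 control library. Without MHCC97L it no longer passed the filter, and DESeq2 gave it no adjusted p.

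HOXA10, a posterior gene with roles in the uterus and in blood progenitors, had 4.99, 3.48 and 2.45 CPM in HCCLM3, MHCC97H and MHCC97L after TGF-β1, against 2.34, 2.35 and 1.85 CPM in their controls. All 3 TGF-β1 libraries lay above all 3 controls, and HCCLM3 stood farthest from its control. HOXA10 rose by 0.77 (SE 0.198, n = 3 lines, edgeR quasi-likelihood adjusted p = 0.0347). Its call was lost without any of the lines, with adjusted p of 0.108 without HCCLM3, 0.0768 without MHCC97H and 0.0784 without MHCC97L, and with DESeq2, at 0.202. Its exons overlap those of HOXA10-AS on the other strand and those of a further gene annotated on its own strand, and the strand of the libraries is not given, so part of its counts may belong to these.

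HOXB6, a central gene, had 4.66, 8.58 and 6.15 CPM in HCCLM3, MHCC97H and MHCC97L after TGF-β1, against 3.85, 5.30 and 4.29 CPM in their controls. Each line was higher with the ligand, and the groups overlapped because treated HCCLM3 lay below the MHCC97H control. HOXB6 rose by 0.57 (SE 0.140, n = 3 lines, edgeR quasi-likelihood adjusted p = 0.0297). The adjusted p was 0.191 with DESeq2, 0.181 without MHCC97H and 0.184 without MHCC97L. HOXB6 shares exon sequence with HOXB3 and, on the other strand, with HOXB-AS3, and its expected counts had decimals in 3 libraries, where HOXB7 had them too and the sum of both was whole to within 0.005. How reads were split between HOXB6 and HOXB7 is therefore uncertain for both.

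**Figure D3:**
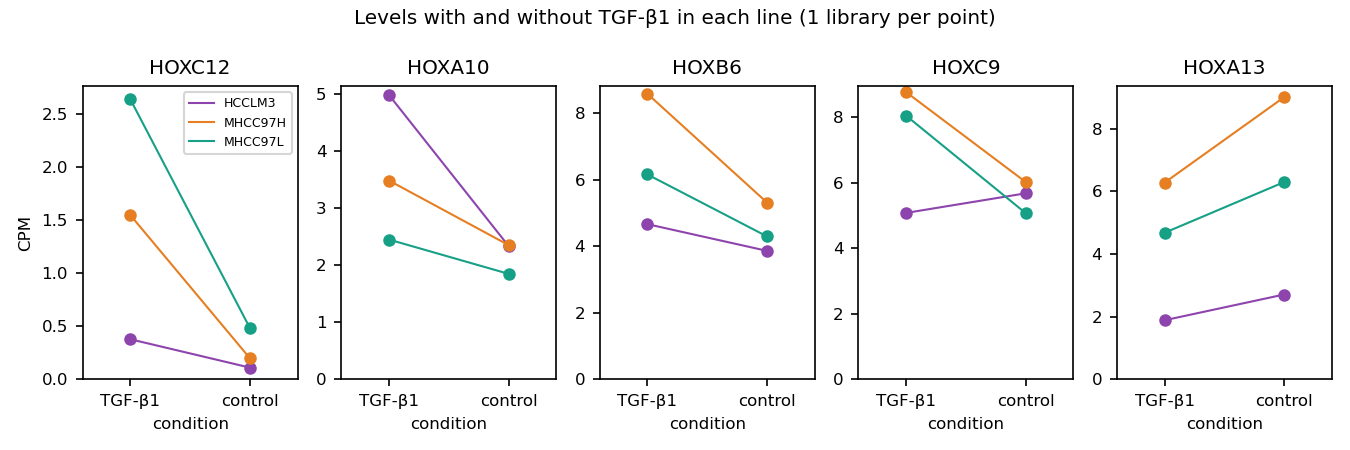
CPM of HOXC12, HOXA10, HOXB6, HOXC9 and HOXA13 with TGF-β1 (left of each panel) and in control (right), with 1 line joining the 2 libraries of each cell line. HOXC12, HOXA10 and HOXB6 are higher with TGF-β1 in each line, HOXC9 in both MHCC97 lines and not in HCCLM3, and HOXA13 is lower in each line.

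HOXA13, the most posterior HOXA gene and a limb and hindgut regulator, was the only HOX gene with an unadjusted p under 0.05 and a negative estimate. It had 1.88, 6.28 and 4.68 CPM in HCCLM3, MHCC97H and MHCC97L after TGF-β1, against 2.70, 9.02 and 6.30 CPM in controls. Every line was lower with the ligand, with large overlap between groups since the lines differ. The estimate of -0.44 (SE 0.136) missed the threshold (edgeR quasi-likelihood adjusted p = 0.0624), and it passed with upper quartiles (0.0477), with library totals (0.0440) and without HCCLM3 (0.0476).

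HOXC9 had 5.08, 8.78 and 8.06 CPM in HCCLM3, MHCC97H and MHCC97L after TGF-β1, against 5.68, 6.03 and 5.08 CPM in controls. Both MHCC97 lines were higher with the ligand and HCCLM3 was not. Over the lines the estimate was 0.43 (SE 0.167, edgeR quasi-likelihood adjusted p = 0.124), and without HCCLM3 it was 0.64 with an adjusted p of 0.00651. HOXA3 had an estimate of 0.21 with an adjusted p of 0.158 by the same test, which was 0.0168 without HCCLM3. HOXC10, a posterior gene that reached 1 CPM in only a single library, had 0.458, 0.713 and 1.34 CPM after TGF-β1, against 0.0541, 0.392 and 0.744 CPM in controls, and an estimate of 1.12 (SE 0.409, edgeR quasi-likelihood adjusted p = 0.103). HOXC11, next to HOXC12, was not tested: it had 5, 8 and 15 counts after TGF-β1 in HCCLM3, MHCC97H and MHCC97L and 3, 8 and 2 in controls.

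The central HOXC genes had estimates near those of HOXC9 or below. HOXC8, expressed in trunk mesoderm and spinal cord, had 2.68, 1.85 and 1.95 CPM in HCCLM3, MHCC97H and MHCC97L after TGF-β1, against 1.89, 1.47 and 1.62 CPM in controls, which is higher with the ligand in each line, with an estimate of 0.42 that missed the threshold (edgeR quasi-likelihood adjusted p = 0.204). HOXC6 had 1.60, 1.18 and 1.39 CPM against 0.541, 1.67 and 1.44 CPM. It stood at 34 counts in treated HCCLM3 and 10 in its control, and was no higher with the ligand in the MHCC97 lines.

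Among the other HOXA genes, HOXA5, needed for lung formation in mice, had 6.73, 5.59 and 4.20 CPM after TGF-β1 in HCCLM3, MHCC97H and MHCC97L, against 6.22, 4.12 and 3.81 CPM in controls. HOXA2, a regulator of hindbrain and neural crest, had 4.80, 3.70 and 4.38 CPM, against 4.33, 4.02 and 3.41 CPM. HOXA6 had 2.72, 1.81 and 1.21 CPM, against 2.87, 1.81 and 1.88 CPM, and HOXA4 1.27, 1.03 and 0.650 CPM, against 0.920, 1.18 and 0.919 CPM. HOXA5 was higher with the ligand in each line and the other 3 were not, and none passed the test, with estimates from -0.16 to 0.28.

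In HOXB, HOXB7 had 8.33, 15.4 and 11.4 CPM after TGF-β1 in HCCLM3, MHCC97H and MHCC97L, against 9.29, 11.7 and 10.2 CPM in controls. HOXB5 had 1.22, 3.10 and 1.69 CPM, against 3.03, 2.21 and 1.93 CPM. Both were lower with the ligand in HCCLM3 and higher in MHCC97H. HOXB3 had 0.376, 1.93 and 0.866 CPM, against 0.216, 1.72 and 1.27 CPM, and HOXB4, which promotes growth of blood stem cells in culture, had 0.0470, 1.16 and 0.693 CPM, against 0.162, 1.08 and 0.875 CPM. None of the 4 passed the test.

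Within a line there is no replicate, and the change is given as a log2 ratio of CPM (prior count 2) with a 95% interval for counting error only. HOXC12 was higher by 1.19 (interval -0.53 to 5.07) in HCCLM3, 2.51 (1.50 to 4.93) in MHCC97H and 2.26 (1.52 to 3.53) in MHCC97L. Of the HOX genes with 1 CPM or more in either library, HOXC12 was the one of 17 that was 2-fold or more higher in MHCC97H and likewise in MHCC97L, where 2.61% and 1.83% of all such genes were, and no HOX gene was 2-fold or more lower there, where 1.72% and 1.23% were. In HCCLM3, HOXA10 and HOXC6 of 14 genes were 2-fold or more higher, by 1.07 (0.58 to 1.65) and 1.41 (0.51 to 2.75), beside 1.84% of all genes, and HOXB5 was lower, at -1.24 (-2.04 to -0.61), beside 1.59% of all genes. HOXB5 stood at 0.47 (-0.07 to 1.06) in MHCC97H and -0.18 (-0.85 to 0.47) in MHCC97L, so its interval left 0 in HCCLM3 alone. The median over the HOX genes was 0.02, 0.29 and 0.24 in HCCLM3, MHCC97H and MHCC97L, and -0.08, -0.04 and -0.04 over all genes at that level.

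**Figure D4:**
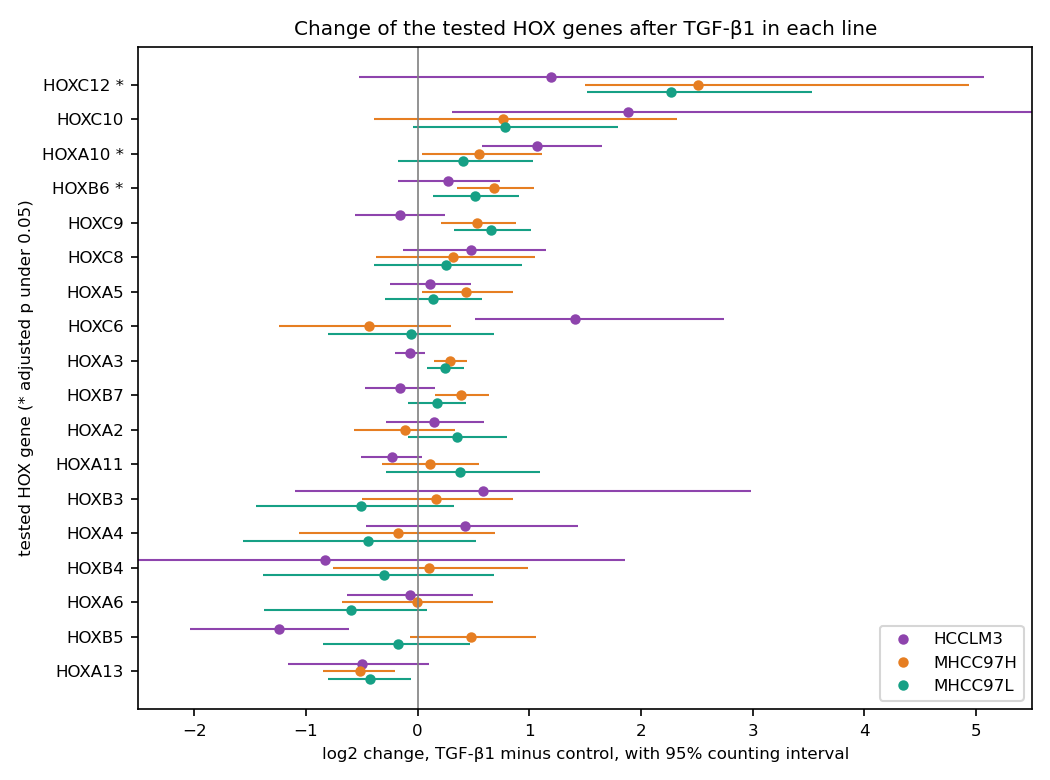
Log2 change, TGF-β1 minus control, of tested HOX genes in each line, with 95% intervals for counting error, and an asterisk for an adjusted p under 0.05 over the lines. HOXC12 lies at 1.19 to 2.51, HOXA13 at -0.52 to -0.42, and HOXB5 and HOXC6 have their HCCLM3 point apart from the others. Intervals that pass the edge of the axis are clipped.

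The other comparisons ask how the lines differ, with the 2 libraries of a line standing for it and treatment as a term. These 2 libraries, treated and control, are not repeats of the same condition (n = 2 libraries per line). Each p therefore rests on how the treatment response varied between lines. Spread between repeat libraries of a line under the same condition was not measured, and no p here covers it. The line comparisons share libraries, so their results are given side by side. Of 20 HOX genes tested, 10 were called between HCCLM3 and MHCC97L (50%), against 29.5% of 14586 genes. Between HCCLM3 and MHCC97H, 8 were called (40%), against 26.8%. Between MHCC97H and MHCC97L, HOXA11 alone was called (5%), against 2.54%. In HCCLM3 the HOXA genes HOXA11 and HOXA3 were higher than in either MHCC97 line, and HOXA13, HOXB3, HOXB4 and HOXC12 were lower than in either. Of these, HOXB3, HOXB4 and HOXC12 passed the filter on low counts through MHCC97 libraries alone. Against an MHCC97 line they could therefore only be called lower in HCCLM3, and the counts of calls above include them.

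HOXA11, a posterior gene of limb, kidney and uterus, was called in all 3 line comparisons. It had 10.4 and 12.2 CPM in HCCLM3, 4.39 and 4.07 CPM in MHCC97H, and 1.91 and 1.44 CPM in MHCC97L, after TGF-β1 and in control each time. No library of a line overlapped with another line's, and its estimate for TGF-β1 against control was 0.05 (SE 0.156, edgeR quasi-likelihood adjusted p = 0.877). HOXA11 was higher in HCCLM3 than in MHCC97L by 2.75 (SE 0.197, edgeR quasi-likelihood adjusted p = 3.0e-05) and than in MHCC97H by 1.44 (SE 0.172, adjusted p = 0.000483), and higher in MHCC97H than in MHCC97L by 1.30 (SE 0.221, adjusted p = 0.0231). The first 2 calls held under all 15 alternatives, and the call between the MHCC97 lines under 10 of 15. HOXA11-AS, on the other strand, overlaps its exons and was not analysed here.

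HOXA13, a near neighbour of HOXA11, ran the other way between HCCLM3 and the MHCC97 lines. Its levels, given above, were 1.88 and 2.70 CPM in HCCLM3, under each library of the other lines. It was lower in HCCLM3 than in MHCC97H (log2 difference -1.71, SE 0.176, edgeR quasi-likelihood adjusted p = 0.000229) and than in MHCC97L (-1.26, SE 0.182, adjusted p = 0.00114), in all 15 alternatives of each. Between MHCC97H and MHCC97L the libraries overlapped and no call was made, with an estimate of 0.44, higher in MHCC97H as for HOXA11. HOTTIP, a noncoding RNA gene that overlaps HOXA13 on the other strand, was not analysed here. HOXA3 followed HOXA11 in order, with 44.2 and 46.3 CPM in HCCLM3, 37.0 and 30.1 CPM in MHCC97H and 28.4 and 24.0 CPM in MHCC97L, and was higher in HCCLM3 by 0.79 (SE 0.107, edgeR quasi-likelihood adjusted p = 0.000816) than in MHCC97L and by 0.47 (SE 0.106, adjusted p = 0.0118) than in MHCC97H. The last call was lost without the MHCC97H control, at an adjusted p of 0.0804.

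HOXA5, HOXA6 and HOXA10 were higher in HCCLM3 than in MHCC97L, by 0.69, 0.86 and 0.75, with edgeR quasi-likelihood adjusted p of 0.0158, 0.0384 and 0.0483. These calls held under 10, 8 and 6 of 15 alternatives in that order. DESeq2 made none of them, with adjusted p of 0.157, 0.299 and 0.351. With single libraries left out, the highest adjusted p was 0.195 for HOXA5 and 0.373 for HOXA6, each without TGF-β1-treated MHCC97L, and 0.495 for HOXA10 without TGF-β1-treated HCCLM3. In the control libraries HOXA10 stood at 2.34, 2.35 and 1.85 CPM in HCCLM3, MHCC97H and MHCC97L.

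In HOXB the calls made were all lower in HCCLM3, but HOXB3 and HOXB4 could not have been called higher there. Against MHCC97L, HOXB6 and HOXB7 were not called, with estimates of -0.29 each. No direction is therefore read for the cluster. HOXB5 was not called, with estimates of 0.19 against MHCC97L and -0.35 against MHCC97H. HOXB3 was lower in HCCLM3 than in MHCC97H (log2 difference -2.55, SE 0.447, edgeR quasi-likelihood adjusted p = 0.00357), as was HOXB4 (-3.38, SE 0.619, adjusted p = 0.00417), in all 15 alternatives. Against MHCC97L the differences were -1.80 (SE 0.496, adjusted p = 0.0255) for HOXB3 and -2.89 (SE 0.666, adjusted p = 0.0114) for HOXB4, and without the MHCC97L control they gave 0.211 and 0.0705. HOXB4 had 1 and 3 counts in HCCLM3 after TGF-β1 and in control, against 27 and 22 in MHCC97H and 16 and 20 in MHCC97L. HOXB3 and HOXB4 share exon sequence, so their values are not independent. Both passed the filter through 2 TGF-β1 and 2 control libraries, all from the MHCC97 lines. HOXB6 and HOXB7 were lower in HCCLM3 than in MHCC97H (-0.66 and -0.59, adjusted p = 0.0208 and 0.0194), and both calls were lost without TGF-β1-treated MHCC97H (0.207 and 0.184) and without TGF-β1-treated HCCLM3 (0.177 and 0.137).

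In HOXC, HOXC12 was lower in HCCLM3 than in MHCC97L (log2 difference -2.66, SE 0.443, edgeR quasi-likelihood adjusted p = 0.00206) and than in MHCC97H (-1.79, SE 0.499, adjusted p = 0.0278). These rest on the treated libraries: the first was 0.0860 without treated MHCC97L and 0.203 without treated HCCLM3, and the second 0.0559, 0.521 and 0.551 without treated MHCC97L, MHCC97H or HCCLM3. HOXC10 was lower in HCCLM3 than in MHCC97L (-1.94, SE 0.535, adjusted p = 0.0258), which was 0.113 without the MHCC97L control, 0.120 without treated MHCC97L and 0.0652 without the HCCLM3 control. HOXC8 and HOXC9, the most abundant HOXC genes per length, were called in none of the line comparisons.

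**Figure D5:**
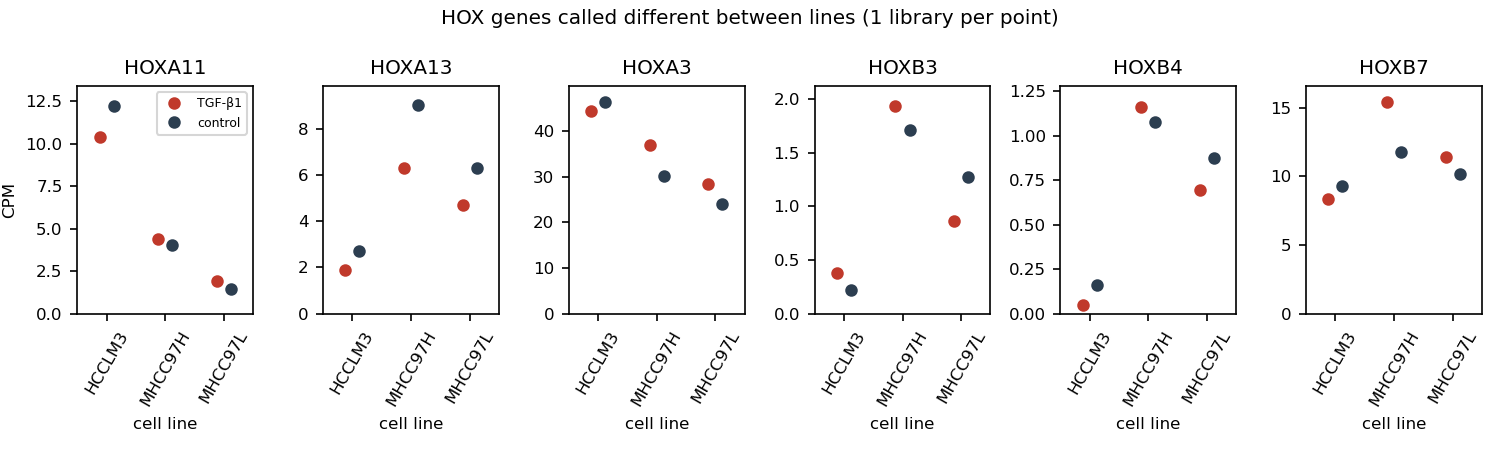
CPM of 6 HOX genes in HCCLM3, MHCC97H and MHCC97L, with 1 point per library, TGF-β1 left of control. HOXA11 and HOXA3 step down in that order without overlap, with 10.4 and 12.2 CPM of HOXA11 in HCCLM3, while HOXA13, HOXB3, HOXB4 and HOXB7 have their lowest points in HCCLM3.

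Genes that work with or on the clusters moved in both directions after TGF-β1. Their counts are read beside the 7.79% of all genes that were called higher and the 6.65% called lower. Of 9 HOX cofactor genes 5 were tested: MEIS3 rose by 0.41 (SE 0.0887, edgeR quasi-likelihood adjusted p = 0.0185) and MEIS2 fell (-0.53, SE 0.0959, adjusted p = 0.00929), and the median estimate was -0.16. Of 21 Polycomb genes 20 were tested, and PHC2 (0.33) and JARID2 (0.49) rose, none fell, and the median was 0.02. Of 14 trithorax and activator genes all were tested. KDM6B, a demethylase that removes the repressive mark on histone H3 lysine 27, rose by 1.26 (SE 0.140, adjusted p = 0.00289), with 107, 49.0 and 52.8 CPM after TGF-β1 in HCCLM3, MHCC97H and MHCC97L against 34.8, 23.4 and 27.8 CPM in controls. The methyltransferase genes KMT2C, KMT2D, ASH1L and KMT2A fell, with estimates of -0.58, -0.45, -0.36 and -0.30, and the median of the list was -0.10.

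Of 14 retinoic acid genes 8 were tested, and DHRS3, which turns retinaldehyde back into retinol, rose by 0.58 and the receptor gene RARA by 0.42, with none lower and a median of 0.20. Of 6 ParaHox and caudal genes CDX2 and PDX1 were tested, neither passed, and the median was -0.01. Of 8 genes that flank the clusters 7 were tested, none passed and the median was 0.005. Of 22 noncoding and other genes inside the clusters, EVX1, EVX2, PRAC1 and PRAC2 had values, none at 1 CPM, and the others were not analysed here. PBX2, RING1 and RXRB, which lie in the region of the HLA genes, stayed under 1 CPM and are uncertain.

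Between lines, MEIS3 was higher in HCCLM3 than in MHCC97L by 1.26 and than in MHCC97H by 1.01, and PBX3 than in MHCC97L by 0.47. MEIS2 went the other way and was called lower in HCCLM3 than in MHCC97H, with a difference of -0.72. The counts that follow are read beside the shares of all genes called. In HCCLM3 15.2% were higher and 14.3% lower than in MHCC97L, and 13.3% higher and 13.6% lower than in MHCC97H. Among the 5 cofactor genes tested, 2 were called higher and 0 lower in HCCLM3 than in MHCC97L, and 1 higher and 1 lower than in MHCC97H. Of the 20 Polycomb genes tested, 1 was called higher and 4 lower in HCCLM3 than in MHCC97L, and 3 higher and 4 lower than in MHCC97H. CBX2 had differences of -0.85 and -0.83 in that order and BMI1 of 0.47 and 0.34. Of the 14 trithorax and activator genes, KMT2A and KDM6B were called higher in HCCLM3 than in either MHCC97 line and none lower. CDX2, the caudal gene that activates posterior HOX genes in the embryo, was lower in HCCLM3, with 2.73 and 4.65 CPM after TGF-β1 and in control, against 9.04 and 13.1 CPM in MHCC97H and 8.49 and 9.76 CPM in MHCC97L, a difference of -1.34 (SE 0.176, edgeR quasi-likelihood adjusted p = 0.000696) from MHCC97L. Of the 8 retinoic acid genes tested, 3 were called lower and none higher in HCCLM3 than in MHCC97L, and 4 lower and 1 higher than in MHCC97H. CYP26B1, which degrades retinoic acid, was lower in HCCLM3 than in MHCC97L (-3.14, SE 0.301, adjusted p = 0.000135). The share these genes have in the HOX differences was not tested.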

How the data were processed

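The authors deposited expected counts per Ensembl gene ID, 1 file per library. Per the submitters' processing notes the build was hg38 and the tools included Cuffdiff 1.3.0, Cufflinks 2.2.1 and TopHat2 2.1.1, with no roles; the counting tool and the strand of the libraries are not given in the sources used here. Of each library's values 63.6% to 64.6% were exactly whole with 0 counted as whole, and 52.8% to 53.2% of those above 0, which is why the deposited values are taken to be expected counts, such as arise where a read is divided among genes. Reads in overlapping HOX genes can therefore be assigned to either. The antisense genes named here had no matched entry among the gene IDs, so how their reads were assigned cannot be seen. Symbols were matched for 19574 of 22091 IDs, with coordinates and exon overlaps from GENCODE 29. Counts were rounded to whole numbers for the models.

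Levels are CPM, counts over the library total. Tests were run on all genes with edgeR 4.0.16 (R 4.3.3): TMM scaling, filterByExpr, robust quasi-likelihood F test with line and treatment as terms, and Benjamini-Hochberg adjustment at 0.05; SE is the log2 estimate over the square root of F. The filter on treatment groups left 14176 genes, and that on line groups 14586. Alternatives used other scalings, no filter or the other filter, DESeq2 1.42.0, limma-voom (limma 3.58.1), a fit without the robust option, each line or library left out, and no replicate block. Scripts were tested on simulated data. Plots and tables used Python 3.11.15, pandas 2.3.3, numpy 2.4.6 and matplotlib 3.10.9.

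For TGF-β1 the replicates are the 3 lines, which are related by origin and not independent of one another. For the line comparisons the 2 libraries of a line stand in for replicates, although they differ in treatment. The labels pair the libraries of a line. Across 13224 genes, a line's TGF-β1 and control libraries departed together from the mean of their condition, with a correlation of 0.812 in HCCLM3, 0.587 in MHCC97H and 0.716 in MHCC97L. Within a line, log2 ratios use a prior count of 2 and 95% exact conditional binomial intervals. Reads carried no molecular identifiers that the labels mention, so these intervals, like the limits given for a count of 0, hold counting error and nothing else. The HOX genes, the other gene lists, motifs and tests were chosen with earlier results of these data known. By the naming rule, values in every library are given for the 16 HOX genes expressed in at least 1 line, and the others by range and count; HOXC12, HOXC10 and HOXC11 are given beyond that rule, chosen after their values were seen. From the other lists up to 4 genes past the threshold for TGF-β1 are named; the genes named for a difference between lines were chosen after their values were seen. Some values are not reported here, in the text or in the figures.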

Additional observations from a re-analysis of the deposited data

Results flagged for a closer look

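Of the 16 HOX genes expressed in at least 1 line, 10 had a TGF-β1 library above its control in 1 line and below it in another. With 1 library per line and condition these differences between lines were not tested. Values are log2 changes, TGF-β1 minus control, in the 2 lines farthest apart, with the difference between those lines.

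In 5 of these genes a counting interval left 0 in some line. HOXC6 had 1.41 in HCCLM3 (interval above 0) and -0.44 in MHCC97H, a difference of 1.85. HOXB5 had -1.24 in HCCLM3 (interval below 0) and 0.47 in MHCC97H, a difference of -1.72. HOXC9 had -0.16 in HCCLM3 and 0.66 in MHCC97L (interval above 0), a difference of -0.82. HOXB7 had -0.16 in HCCLM3 and 0.39 in MHCC97H (interval above 0), a difference of -0.55, and HOXA3 had -0.07 and 0.29 (interval above 0) in those lines, a difference of -0.36.

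In the other 5 every line's interval held 0, so the directions are unsure. Between HCCLM3 and MHCC97L, HOXA11 had -0.23 and 0.38 (a difference of -0.61), HOXA4 had 0.43 and -0.45 (0.88) and HOXB3 had 0.59 and -0.51 (1.10). HOXB4, with 1 and 3 counts in HCCLM3, had -0.83 there and 0.10 in MHCC97H (-0.93). HOXA2 had -0.12 in MHCC97H and 0.35 in MHCC97L (-0.47).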

How the results depend on the processing

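With 1 library per line and condition, no alternative replaces a repeat of a line. No called HOX gene changed sign in the alternatives run. For TGF-β1 the calls among all genes, 2047 with line as the block, were 10 with no replicate block and ran from 611 to 3971 with a line left out; HOX genes higher, 3, were 0 with DESeq2 (where HOXC12 had no adjusted p), 0 with no replicate block and 0 to 4 with a line left out; HOX genes lower, 0, were 1 with upper quartiles, 1 with library totals and 0 to 1 with a line left out. The cause was not tested. The scalings moved the median of all genes by under 0.1.

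Between HCCLM3 and MHCC97L, calls among all genes (4299) were 1838 with no replicate block and 1931 to 4666 with a library left out. HOX genes higher (5) were 2 with DESeq2, 3 with limma-voom, 2 with no replicate block and 2 to 5 with a library left out, and HOX genes lower (5) were 3, 2 and 2 to 5 with DESeq2, no replicate block and a library left out. Between HCCLM3 and MHCC97H the calls (3912) were 1469 with no replicate block, HOX genes higher (2) were 1 with no replicate block and 1 to 2 with a library left out, and HOX genes lower (6) were 3 with DESeq2, 3 with no replicate block and 3 to 8 with a library left out. Between MHCC97H and MHCC97L the calls (371) were 243 with limma-voom, 2 with no replicate block and 80 to 1450 with a library left out, and the HOX genes higher (1) were 0, 0 and 0 to 2. At 2 CPM, 7 HOX genes were expressed in MHCC97L and 10 in MHCC97H. Of 491 recomputed values for 35 results on named genes, 66 lost and 7 gained the call. Depth limits genes under 1 CPM, where a few counts set a ratio.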
